A study of Mus musculus with 10 samples.

Results

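The genes of fatty acid oxidation and the targets of the nuclear receptor PPAR-alpha were followed in kidneys of mice that overexpress human FGF23. The members were a list of 33 mouse genes of known function in these pathways, named with earlier results of these data in view. The list holds 18 mitochondrial genes, 7 peroxisomal genes, 4 genes of lipid uptake and activation, and PPAR-alpha with 3 further targets. Of the 33 genes, 29 had a probe set that named only them, and 28 passed the filter on dim probe sets, among 6814 tested probe sets of 12488 on the array.

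The series held 10 kidneys of C57Bl mice at 8 weeks of age, 5 from TG mice and 5 from WT mice, each hybridised to 1 Affymetrix MG_U74Av2 array from 6 ug of total RNA. The TG mice carried wild type human FGF23 behind a collagen type I promoter (written as 1 alpha col 1 in the labels), so the transgene is driven in bone-forming cells and the kidney sees the circulating hormone. FGF23 lowers renal phosphate reabsorption through the proximal tubule. The characteristics of all 10 samples name the transgenic genotype, and the groups were therefore taken from the sample titles. Sex is not given in the labels, and was read from Xist and Eif2s3y. The TG animals 614 and 652 were female and 619, 657 and 661 male, and the WT animals 612 and 650 were female and 618, 658 and 663 male. Nothing in the labels ties a TG animal to a WT animal, and the p-values measure the spread between these animals. Values are log2 expression values as deposited, and differences are TG minus WT on that scale.

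Fatty acids enter mitochondria as carnitine esters, and are shortened there in repeated rounds of dehydrogenation, hydration, a further dehydrogenation and thiolytic cleavage. Peroxisomes shorten very long and branched chains. PPAR-alpha binds fatty acids, pairs with RXR on direct repeats of the hexamer AGGTCA that lie 1 base apart, and raises the transcription of enzymes of both organelles. The proximal tubule reabsorbs phosphate and draws most of its energy from fatty acids, which makes this pathway a prominent one in kidney cortex.

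The hexamer was searched in the RefSeq promoter windows of the members, because these genes are grouped by a shared regulator. Each window runs from 250 bases before to 50 after a transcript start site in build GRCm38.p6. That site is the outer edge of the annotated gene for 19 of the 26 members with a window, and lies inside the gene for others. The hexamer AGGTCA, on either strand, occurred in 6 of these 26 members (23.1%: Cpt1a, Acadvl, Acadm, Scp2, Phyh and Cd36), and in 4900 of 27025 genes with one (18.1%). The full repeat AGGTCANAGGTCA, which contains the hexamer, occurred in 0 members and in 13 genes, and the looser repeat AGGNCANAGGNCA in 0 members and in 122 genes (0.451%). One of those 122 is Fabp1, the liver fatty acid binding protein, which is described below with the other lipid genes. Acadvl was below the filter's floor, and the Phyh match lies after its start site. The stretches around the other 4 matches and that of Fabp1 are shown 5′ to 3′ on the strand of each gene, with the match in capitals. TGACCT is the hexamer read on the opposite strand. The Cpt1a stretch lies at chr19:3323187-3323232 on the plus strand, and its match ends 89 bases before a start site that lies 975 bases inside the annotated gene. The Acadm stretch lies at chr3:153944867-153944893 on the minus strand, 244 bases before a start site at the edge of the gene. The Scp2 stretch lies at chr4:108118631-108118676 on the minus strand, 104 bases before a start site 26424 bases inside the gene. The Cd36 stretch lies at chr5:17836099-17836144 on the minus strand, 223 bases before a start site 53063 bases inside the gene. The Fabp1 stretch lies at chr6:71199792-71199844 on the plus strand, 55 bases before a start site at the edge of the gene, and its capitals mark the looser repeat. A match describes letters in the window and is not a measured binding site.
Cpt1a: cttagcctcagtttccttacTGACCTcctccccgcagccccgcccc
Acadm: gTGACCTtcgggctccggtgacactgg
Scp2: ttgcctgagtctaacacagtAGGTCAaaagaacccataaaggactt
Cd36: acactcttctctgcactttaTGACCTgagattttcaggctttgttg
Fabp1: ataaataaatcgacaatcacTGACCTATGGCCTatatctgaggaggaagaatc

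No member passed the test of TG against WT in the fit without sex. At a Benjamini-Hochberg adjusted p of 0.05 from limma, 0 of the 28 members were called, against 83 of 6814 probe sets (1.22%). At an unadjusted p under 0.05 there were 3 members, Crat, Ech1 and Fabp3, against 868 probe sets (12.7%). The differences of 22 members were below 0 and those of 6 above it, with a median of -0.18, while 53.8% of all tested probe sets were below 0 with a median of -0.02. With sex in the model 1 member was called, Crat, against 285 probe sets (4.18%), and 6 members had an unadjusted p under 0.05 against 1204 probe sets (17.7%). The values of the groups did not overlap for 1 member, again Crat, and for 278 probe sets (4.08%), of which those with every TG value below every WT value were 130 (1.91%). The share of members called was near that of all probe sets in each fit.

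**Figure D1:**
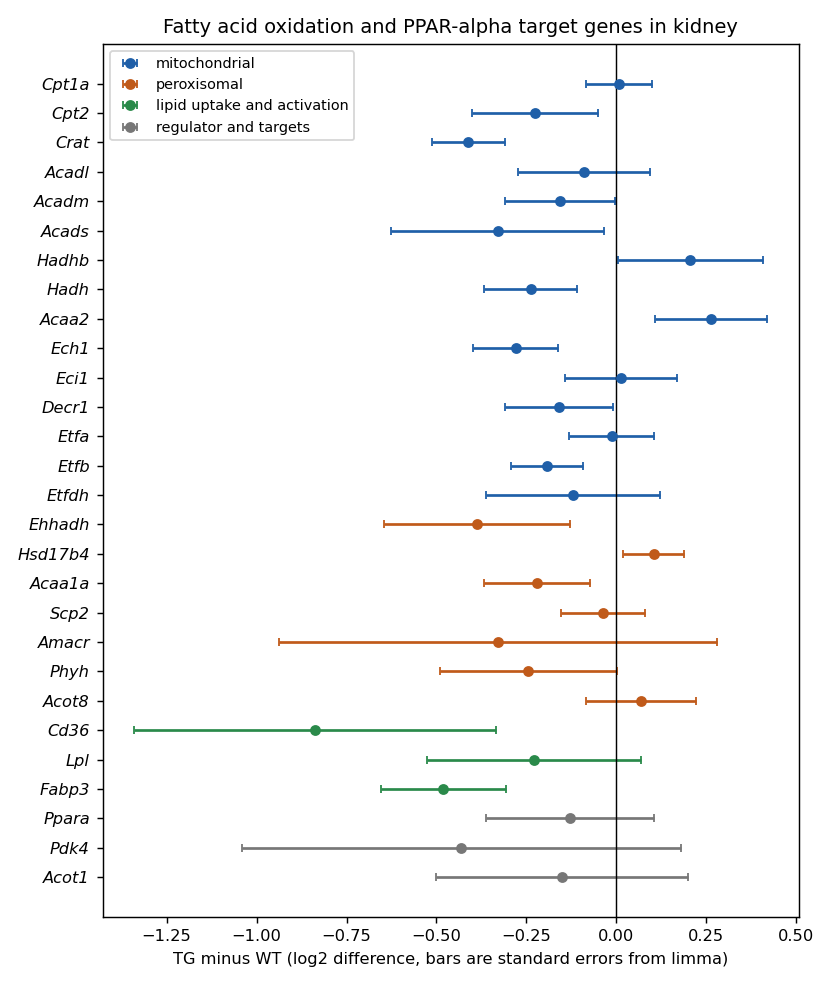
TG minus WT differences of the 28 tested members on the log2 scale, ordered by role, with standard errors from limma (5 animals per group). The points run from -0.84 for Cd36 to 0.26 for Acaa2, and 22 of the 28 lie left of 0.

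Crat, carnitine acetyltransferase, which moves acetyl groups between coenzyme A and carnitine, was the member with the smallest p. Its log2 values were 8.24, 8.08, 7.98, 8.26 and 8.31 in TG 614, 619, 652, 657 and 661, against 8.38, 8.77, 8.68, 8.54 and 8.55 in WT 612, 618, 650, 658 and 663. Every TG animal lay below every WT animal. Crat averaged 8.17 ± 0.14 in TG and 8.58 ± 0.15 in WT kidneys (SD, n = 5 each), a difference of -0.41 ± 0.10 (SE) or 1.33-fold, with an adjusted p of 0.0955 in limma. It fell in the fit with sex, where the adjusted p was 0.045. That call held in 1 of the 10 fits with sex that left out 1 animal, the one without WT 612 (adjusted p 0.0448 against at most 0.114), a check chosen after seeing the data. The difference was -0.42 in females and -0.41 in males, and -0.42 and -0.41 in the animals numbered 612 to 619 and 650 to 663. The exact two-sided permutation test of 5 against 5 animals gave its smallest possible p, 0.00794, unadjusted for the 28 members.

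The carnitine palmitoyltransferases, which load long chains onto carnitine and off it, did not pass the test. Cpt2, the inner-membrane enzyme, had 9.78, 10.05, 9.43, 9.78 and 9.92 in the TG animals in the same order, against 9.54, 10.42, 10.32, 9.88 and 9.93 in the WT animals. The groups overlapped, with WT 612 near the bottom and WT 618 at the top. The difference was -0.23 ± 0.18 (adjusted p 0.647). Cpt1a, the liver-type outer-membrane enzyme and the regulated step of entry, averaged 11.65 ± 0.09 in TG and 11.64 ± 0.15 in WT kidneys.

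The acyl-CoA dehydrogenases open each round of oxidation, and each prefers a range of chain lengths. Acads, for short chains, had 8.14, 8.55, 7.89, 8.61 and 8.90 in TG kidneys, against 7.89, 9.51, 8.39, 8.77 and 9.17 in WT kidneys. The lowest animals of both groups were females, and the groups overlapped (difference -0.33 ± 0.30, adjusted p 0.703). Acadm, for medium chains, had 13.77, 13.35, 13.11, 13.53 and 13.69 in TG kidneys, against 13.43, 13.38, 13.95, 13.63 and 13.84 in WT kidneys. These ranges overlapped as well, and the difference was -0.16 ± 0.15 (adjusted p 0.720). Acadl, for long chains, averaged 10.28 ± 0.30 in TG and 10.37 ± 0.33 in WT kidneys. Acadvl, for very long chains, was below the floor of the filter (log2 of 4) on every array, with 2.48 to 2.86 in the TG kidneys against 2.62 to 3.03 in those of WT mice, and was not tested.

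The enzymes of the later steps pointed both ways and none passed the test. Hadh, which oxidises medium- and short-chain hydroxyacyl-CoA, had 10.79, 10.73, 10.66, 11.12 and 10.96 in TG kidneys, against 10.73, 11.17, 11.06, 11.21 and 11.29 in WT kidneys. The lower end was shared by both groups and the 3 highest values were WT (difference -0.24 ± 0.13, adjusted p 0.485). Acaa2, a mitochondrial thiolase, had 12.87, 12.60, 12.80, 12.69 and 12.65 in TG kidneys, against 12.72, 12.28, 12.94, 12.25 and 12.11 in WT kidneys. The 3 WT males were the lowest animals, and the WT females lay within or above the TG range. Its difference was 0.26 ± 0.16 (adjusted p 0.530), or 0.01 in females and 0.44 in males. Hadhb, the thiolase subunit of the trifunctional protein, averaged 11.54 ± 0.26 in TG and 11.34 ± 0.42 in WT kidneys. Its partner Hadha, the thiolase Acat1, the synthetase Acsl1 and the uncoupling protein Ucp2 had no probe set that named only them.

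The auxiliary enzymes handle double bonds of unsaturated chains. Ech1, a dienoyl-CoA isomerase, had 11.42, 11.64, 11.24, 11.71 and 11.71 in TG kidneys, against 11.64, 12.05, 11.82, 11.72 and 11.89 in WT kidneys. The only overlap was at WT 612, which lay at the middle of the TG values. The difference was -0.28 ± 0.12, with an adjusted p of 0.372 in limma and 0.126 with sex in the model. Decr1, the dienoyl-CoA reductase, had 10.17, 10.36, 10.02, 10.66 and 10.73 in TG kidneys, against 10.26, 10.59, 10.60, 10.75 and 10.55 in WT kidneys. The groups overlapped over most of their range, and the difference was -0.16 ± 0.15 (adjusted p 0.713). Eci1, an enoyl-CoA isomerase, averaged 9.38 ± 0.18 in TG and 9.37 ± 0.33 in WT kidneys.

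Electrons from the dehydrogenases pass through the flavoprotein Etfa and Etfb to Etfdh, which hands them to ubiquinone. Etfb had 11.35, 11.35, 11.27, 11.40 and 11.37 in TG kidneys, against 11.58, 11.83, 11.56, 11.33 and 11.41 in WT kidneys. The TG animals lay within a narrow band at the lower end of the WT range. The difference was -0.19 ± 0.10 (adjusted p 0.461). Etfdh had 8.91, 9.12, 9.36, 9.64 and 9.56 in TG kidneys, against 8.69, 9.10, 9.83, 9.71 and 9.86 in WT kidneys. In both groups the animals numbered 612 to 619 were the lowest, and the difference was -0.12 ± 0.24 (adjusted p 0.876). Etfa averaged 11.85 ± 0.15 in TG and 11.87 ± 0.21 in WT kidneys. Cpt1a, Eci1, Etfa and the peroxisomal Scp2 were the 4 members within 0.05 of 0, with differences from -0.04 to 0.01 whose sign changed between settings.

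Among the peroxisomal members none of 7 passed the test. Ehhadh, the bifunctional enzyme and a classical PPAR-alpha target in rodent liver, had 10.33, 10.42, 9.27, 10.51 and 10.59 in TG kidneys, against 10.17, 10.34, 10.75, 11.07 and 10.73 in WT kidneys. TG 652 lay far below every other animal, and without it the difference of -0.39 ± 0.26 (adjusted p 0.584) was -0.15. Hsd17b4, the other bifunctional enzyme, averaged 11.06 ± 0.11 in TG and 10.96 ± 0.09 in WT kidneys, a difference of 0.10 ± 0.08 (adjusted p 0.663).

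The thiolase Acaa1a had 11.41, 11.50, 11.26, 11.27 and 11.36 in TG kidneys, against 11.93, 11.94, 11.43, 11.29 and 11.32 in WT kidneys. Only WT 612 and 618 stood above the TG range, and the difference was -0.22 ± 0.15 (adjusted p 0.582). Phyh, which starts the alpha-oxidation of phytanic acid, had 11.43, 11.67, 11.60, 12.05 and 12.08 in TG kidneys, against 11.21, 12.27, 11.67, 12.41 and 12.49 in WT kidneys. Amacr, which turns branched chains into the form that can be oxidised, had 8.92, 10.44, 8.58, 10.40 and 10.51 in TG kidneys, against 8.26, 10.84, 9.31, 11.20 and 10.88 in WT kidneys. For both genes the females made up the lowest values, and the TG minus WT differences were -0.24 ± 0.25 (adjusted p 0.729) and -0.33 ± 0.61 (adjusted p 0.864). Scp2, the thiolase and sterol carrier, averaged 12.51 ± 0.18 in TG and 12.55 ± 0.18 in WT kidneys, and Acot8, a thioesterase, 7.77 ± 0.18 in TG and 7.70 ± 0.31 in WT kidneys.

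Lipid uptake was the role with the lowest median difference, and none of its 3 tested members passed. Cd36, the fatty acid translocase of the plasma membrane, had 4.36, 5.77, 4.38, 5.84 and 5.81 in TG kidneys, against 4.42, 6.54, 5.76, 7.00 and 6.62 in WT kidneys. Within males every TG animal lay below every WT animal, and within females both TG animals lay just below WT 612 and well below WT 650. The values of both TG females and of WT 612 (4.36 to 4.42) lay close to the filter's floor, and the other animals had 5.76 to 7.00. Cd36 averaged 5.23 ± 0.79 in TG and 6.07 ± 1.03 in WT kidneys, a difference of -0.84 ± 0.50 with an adjusted p of 0.532 in limma. With sex in the model the standard error was 0.21 and the adjusted p 0.0582, and in males alone the difference was -0.92 with an adjusted p of 0.0352. Leaving out TG 652, the difference was -0.62.

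Fabp3, the heart-type fatty acid binding protein of the cytosol, had 8.96, 8.72, 9.47, 8.76 and 8.97 in TG kidneys, against 9.06, 9.54, 9.86, 9.34 and 9.48 in WT kidneys. TG 652 alone reached into the WT range. The difference was -0.48 ± 0.17, or 1.4-fold, with an adjusted p of 0.281 in limma and 0.153 with sex. Lpl, lipoprotein lipase, which frees fatty acids from triglycerides, had 12.05, 12.33, 11.08, 12.75 and 12.55 in TG kidneys, against 12.13, 11.97, 12.26, 12.85 and 12.70 in WT kidneys. TG 652 was again the lowest animal, and without it the difference of -0.23 ± 0.30 (adjusted p 0.795) was 0.04. A further Lpl probe set differed by -0.75 ± 0.38 (adjusted p 0.448). Its difference ran from -0.95 to -0.38 without 1 animal, and was -0.14 in males and -0.68 in animals 612 to 619. The sign changes of Lpl in such settings therefore belong to the first probe set.

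The receptor itself and its other targets varied widely between animals. Ppara had 8.13, 8.36, 8.99, 8.07 and 8.43 in TG kidneys, against 9.21, 8.61, 8.46, 8.38 and 7.96 in WT kidneys. The groups covered nearly the same range, and the difference was -0.13 ± 0.23 (adjusted p 0.860). Pdk4, the kinase that shuts pyruvate oxidation during fasting, had 7.80, 6.51, 6.93, 7.64 and 8.62 in TG kidneys, against 7.22, 6.28, 9.82, 8.60 and 7.73 in WT kidneys. Acot1, a cytosolic thioesterase, had 8.32, 8.01, 8.70, 8.30 and 8.50 in TG kidneys, against 8.18, 7.65, 9.94, 8.30 and 8.50 in WT kidneys. WT 650 had the highest value of both genes and of Fabp3, and also of Acadm, Hadhb, Acaa2 and Eci1. The differences were -0.43 ± 0.61 for Pdk4 (adjusted p 0.816) and -0.15 ± 0.35 for Acot1 (adjusted p 0.893). Without WT 650 they were 0.04 and 0.21, and that of Fabp3 was -0.38. The same animal had the highest log2 values of the adipocyte genes Adipoq (8.17, against 3.07 to 4.12 in TG and 3.44 to 4.91 in the other WT kidneys) and Retn (7.13). Of the other measured adipose markers, Fabp4 was 4.51 in WT 650, its highest value but close to the floor. Lep was 4.57 there, within the range of 4.35 to 4.87 of all kidneys. The summed linear level of the 4 measured adipose markers ran from 55.5 to 75.0 in TG and from 67.7 to 474 in WT kidneys. Its part in the values of Pdk4, Acot1, Fabp3 and the other members highest in WT 650 was not tested.

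**Figure D2:**
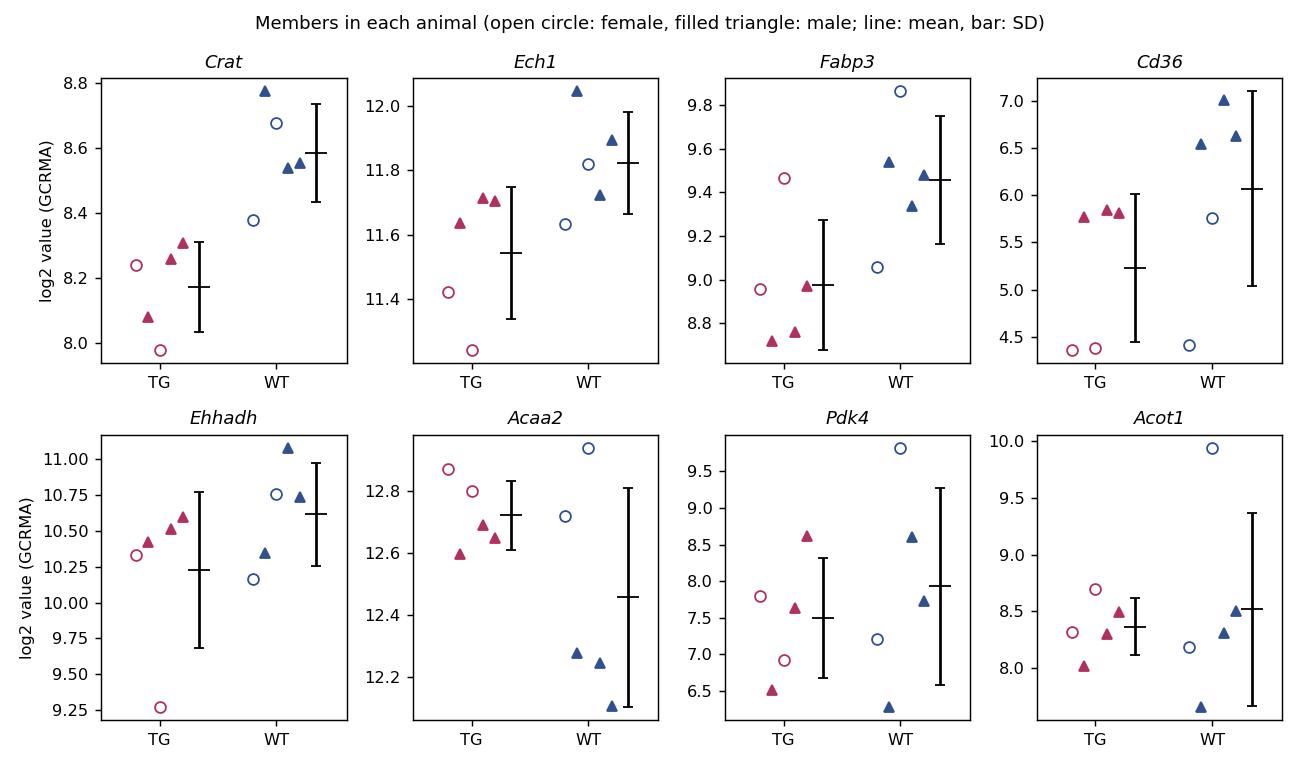
Log2 values of members in each animal, TG left and WT right, with females as open circles, males as filled triangles, and the mean and SD beside each group. For Crat all 5 TG animals lie below all 5 WT animals (8.31 at most in TG, 8.38 at least in WT), while the other members shown overlap.

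By location, the median TG minus WT difference was -0.16 over the 15 tested mitochondrial members, of which 11 were below 0. It was -0.22 over the 7 peroxisomal members, 5 of them below 0, and -0.48 over the 3 uptake members, all of them below 0. The SDs between animals of the corresponding medians were 0.143, 0.166 and 0.457, and the mitochondrial and peroxisomal medians differed by less than either SD. Each SD describes its own list. The spread of the difference between the lists within an animal was not computed, so the SDs do not test that difference. Ech1 and Crat also occur in peroxisomes. Counting them there gave -0.12 for the mitochondrial and -0.24 for the peroxisomal members. The order of the medians turned without TG 652 (-0.07 mitochondrial and -0.03 peroxisomal) and with array weights (-0.13 and -0.11). It also turned within females, within animals 612 to 619 and within animals 650 to 663, with the values given below. The peroxisomal median was -0.13 to -0.05 without TG 614, WT 612, WT 618, WT 658 or WT 663. Within females the medians were -0.17, -0.04 and -0.63, and within males -0.09, -0.14 and -0.64, for mitochondrial, peroxisomal and uptake members in that order.

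The medians also differed between the number ranges of the animals. In the 2 TG and 2 WT animals numbered 612 to 619 they were 0.04, 0.12 and -0.41, and in the 3 TG and 3 WT animals numbered 650 to 663 they were -0.22, -0.10 and -0.49. Over all 28 members the median was 0.05 in the lower and -0.27 in the higher range. The difference between the ranges was tested as an interaction, and it passed for 0 of the 28 members and 0 of 6814 probe sets (0%) in limma, with 1 member and 279 probe sets (4.09%) at an unadjusted p under 0.05. What the ranges stand for is not in the labels.

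**Figure D3:**
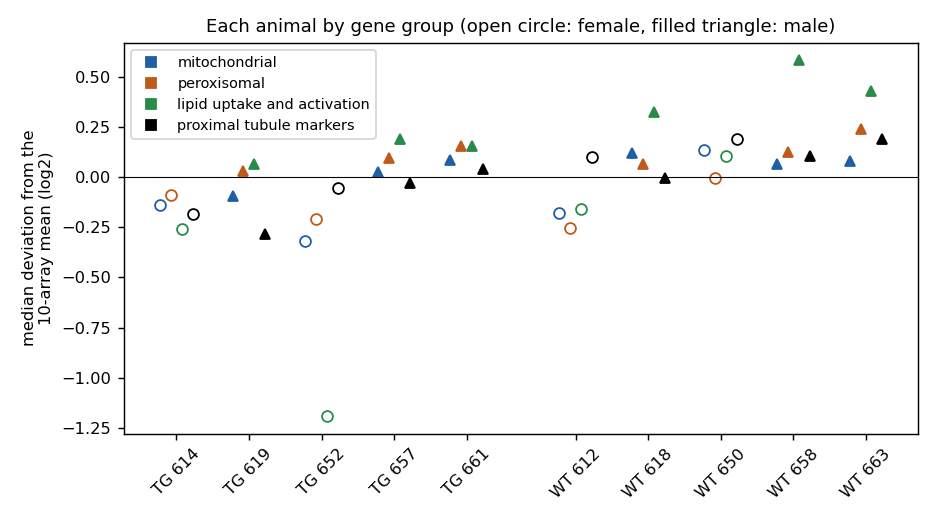
Median deviation from the 10-array mean (log2) of the mitochondrial, peroxisomal and uptake members and of the proximal tubule markers in each animal, TG left and WT right. The uptake median of TG 652 is the lowest point at -1.19, and the mitochondrial medians of the other animals lie between -0.18 and 0.14.

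Several members differed between the sexes. In the fit with genotype and sex, 5 of the 28 members were called between 4 females and 6 males, against 581 of 6814 probe sets (8.53%), and the values of the sexes did not overlap for 5 members and 569 probe sets (8.35%). Amacr, Cd36, Acads and Phyh, 4 members, were lower in females, against 303 probe sets (4.45%), and Acaa2 was higher, against 278 (4.08%). Amacr had 8.26 to 9.31 in females and 10.40 to 11.20 in males, a difference of -1.94 ± 0.20 or 3.84-fold (limma adjusted p 0.000285). Cd36 had 4.36 to 5.76 in females and 5.77 to 7.00 in males, a difference of -1.53 ± 0.22 or 2.9-fold (limma adjusted p 0.00243). The sexes touched but did not overlap for Cd36, and were far apart for Amacr.

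Acads differed by -0.84 ± 0.17 (7.89 to 8.39 in females, 8.55 to 9.51 in males, limma adjusted p 0.0142). Phyh differed by -0.68 ± 0.14 (11.21 to 11.67 in females, 11.67 to 12.49 in males, limma adjusted p 0.0198). Acaa2 differed by 0.40 ± 0.10 (12.72 to 12.94 in females, 12.11 to 12.69 in males, limma adjusted p 0.0377), and this call held without TG 614, TG 619 or TG 652 and was lost without any other 1 animal (0.31 to 0.43, adjusted p 0.0576 to 0.0983). Acadl did not overlap between the sexes either, with 9.87 to 10.20 in females and 10.26 to 10.95 in males, but missed the threshold (adjusted p 0.110). Over all members 20 of 28 were lower in females, with a median of -0.13, as were 3592 of 6814 probe sets, with a median of -0.02. The interaction of sex with genotype passed for 0 of the 28 members in limma and for 1 of 6814 probe sets (0.0147%), with 1 member and 283 probe sets (4.15%) at an unadjusted p under 0.05.

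**Figure D4:**
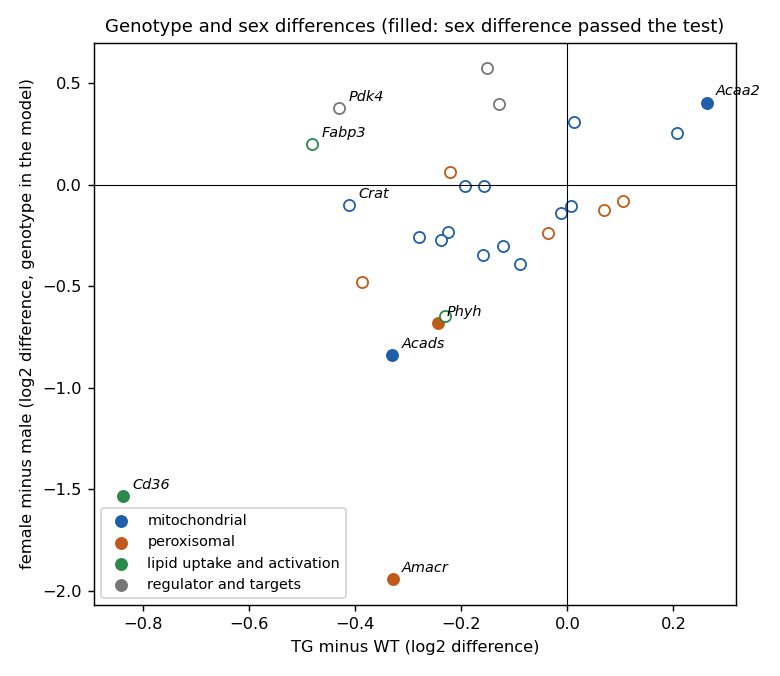
Female minus male difference (vertical) against TG minus WT difference (horizontal) of each tested member, both on the log2 scale. Amacr at -1.94 and Cd36 at -1.53 lie lowest, and Acaa2 at 0.40 is the member called as higher in females.

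Beyond the members, 97 further genes of fatty acid transport, activation, oxidation and storage were listed, of which 52 were tested. Of these, 3 rose and 1 fell in TG kidneys, against 54 (0.792%) and 29 (0.426%) of all probe sets, with 38 differences below 0, 14 above it and a median of -0.13. With sex in the model 3 rose and 4 fell, against 171 (2.51%) and 114 (1.67%) of all probe sets. Slc27a1, the transport protein FATP1, had 7.03, 6.76, 7.19, 6.27 and 6.66 in TG kidneys, against 6.12, 5.67, 5.48, 5.35 and 5.55 in WT kidneys. Every TG animal lay above every WT animal. It rose by 1.15 ± 0.19, or 2.22-fold (limma adjusted p 0.0189). The call was lost without TG 614, TG 619, WT 618, WT 658 or WT 663 (differences of 1.08 to 1.16, adjusted p 0.0523 to 0.0622), and held in all 10 such fits with sex.

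Acsl4, an acyl-CoA synthetase that prefers arachidonate, had 9.62, 9.78, 9.95, 9.49 and 9.52 in TG kidneys, against 9.27, 8.54, 9.08, 8.94 and 8.52 in WT kidneys, again with no overlap. It rose by 0.80 ± 0.16 (limma adjusted p 0.0454). The call held without WT 612 or WT 650 and was lost without any other 1 animal (0.71 to 0.85, adjusted p 0.0712 to 0.125), and held in all 10 such fits with sex. The mean of its probe sets differed by 0.62 and was not called (limma adjusted p 0.103). That mean includes a probe set above the floor on only 3 arrays (3.47 to 4.98). Fabp1 had 11.21, 11.47, 10.88, 11.36 and 5.96 in TG kidneys, against 5.59, 5.33, 5.84, 6.19 and 3.53 in WT kidneys. Its value in TG 661 lay among the WT values, and WT 663 was below the floor. These 2 animals were the ones processed on days of their own. It rose by 4.88 ± 1.00 in the fit of all animals (adjusted p 0.0478 in limma). The mean of its probe sets, which includes one below the floor on every array (2.16 to 2.63), differed by 2.43. The call held without TG 661 (difference 5.93, adjusted p 0.000626) and was lost without any other 1 animal (4.44 to 5.10, adjusted p 0.0649 to 0.139), and held in 3 of the 10 such fits with sex.

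Gpd1, which supplies glycerol 3-phosphate for triglyceride synthesis, had 8.36, 8.81, 8.32, 8.66 and 8.82 in TG kidneys, against 9.10, 9.55, 9.27, 9.18 and 9.68 in WT kidneys, and no values overlapped. It fell by 0.76 ± 0.15 (limma adjusted p 0.0417). The call held without WT 612 and was lost without any other 1 animal (-0.82 to -0.68, adjusted p 0.0532 to 0.116), and held in all 10 such fits with sex. The mean of its probe sets differed by -0.47 and was not called (limma adjusted p 0.0686). That mean includes a probe set below the floor on every array (3.01 to 3.64). Acad9, an acyl-CoA dehydrogenase that also helps assemble respiratory complex I, had 8.44, 8.52, 8.27, 8.48 and 8.69 in TG kidneys, against 8.85, 9.34, 8.81, 9.04 and 9.14 in WT kidneys. The groups did not overlap. It fell with sex in the model (difference -0.55, with an SE of 0.12 and an adjusted p of 0.060 without sex, and 0.088 and 0.0106 with it), and held in 10 of 10 such fits without 1 animal. Vldlr, a lipoprotein receptor, and Acsm2, a medium-chain acyl-CoA synthetase of the proximal tubule, also fell with sex in the model, by 0.59 ± 0.13 and 0.53 ± 0.13 (SE of that fit, limma adjusted p 0.0368 and 0.0473), and held in 2 and 1 of the 10 such fits without 1 animal. A further Vldlr probe set differed by -0.04, at a lower level (4.86 to 5.39, against 5.17 to 6.37 for the first).

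**Figure D5:**
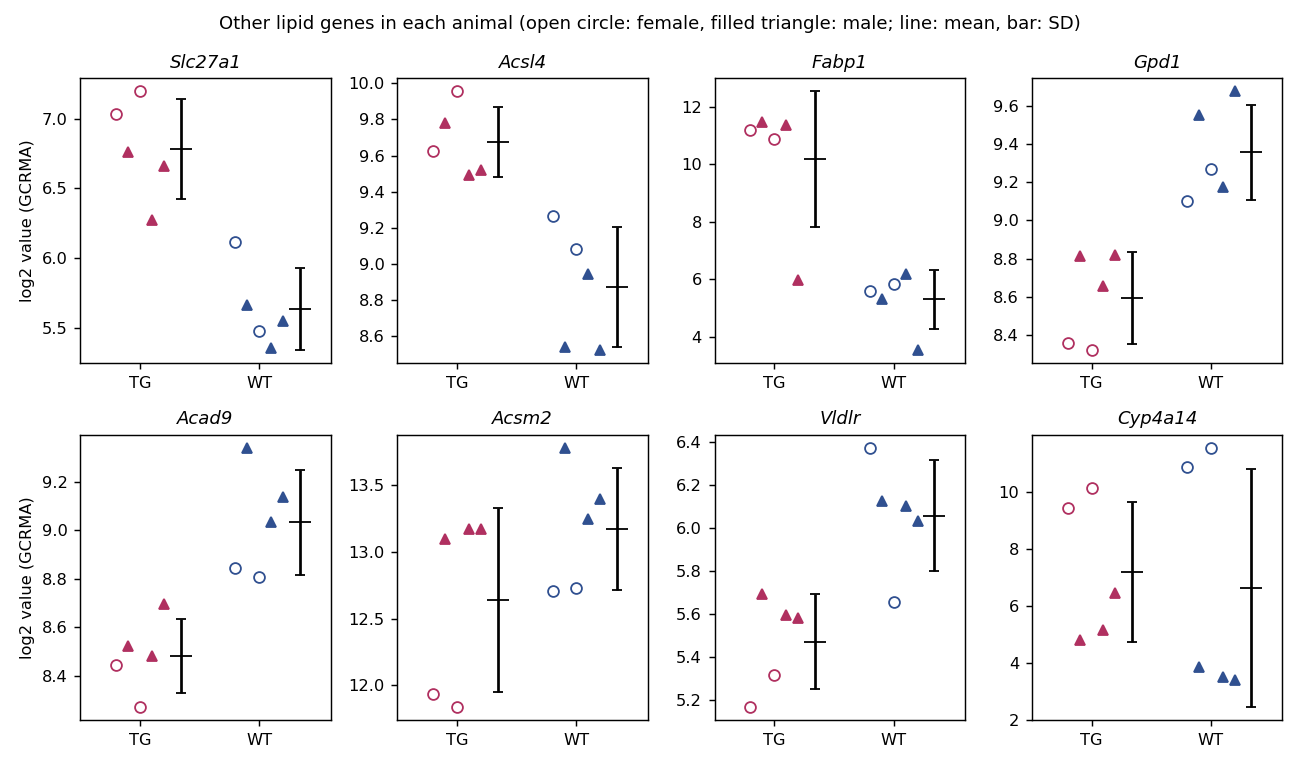
Log2 values of 8 further lipid genes in each animal, TG left and WT right, with females as open circles, males as filled triangles, and the mean and SD beside each group. Slc27a1, Acsl4, Gpd1 and Acad9 do not overlap between the groups, TG 661 lies at 5.96 for Fabp1, and Cyp4a14 separates by sex.

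The summed levels of proximal tubule markers, with Slc34a1 among them, and of leukocyte markers did not overlap between the groups. In whole kidney, fewer cells of a type and less RNA per cell cannot be told apart. Of 8 tested proximal tubule markers 7 were below 0 (median -0.26), with 0 called in limma without sex and 3 with it. Their differences ran from -0.83 for Slc22a6 to 0.01 for Lrp2, with Aqp1 at -0.07. Their summed linear level ran from 33885 to 42398 in TG and from 45207 to 52998 in WT kidneys. This sum includes the phosphate transporter Slc34a1 (difference -0.40), the 1 marker of the 8 whose values did not overlap between the groups. Sums without Slc34a1 were not computed, so the separation is shown only for the list that includes it and not for the other markers. How far it rests on Slc34a1 was not tested. Of 6 tested thick ascending limb and distal tubule markers 5 were above 0 (median 0.49), with 0 called and 2 with sex. These differences ran from -0.91 for Pvalb to 0.92 for Slc12a3, with Wnk1 at 0.03. Further probe sets differed by -0.34 and -0.65 for Wnk1, -0.71 for Pvalb and 1.45 for Kcnj1. The sums ran from 22491 to 31354 in TG and from 11243 to 24992 in WT kidneys. All 7 tested leukocyte markers were above 0 (median 0.92), with C1qa called and 2 called with sex. Their median difference was 2.13 in animals 612 to 619 and 0.28 in animals 650 to 663, and TG 614 and 619 had the highest median deviations (1.05 and 1.23, against -0.14 to 0.22 in the other TG kidneys and -0.77 to -0.14 in WT kidneys). The leukocyte sums ran from 858 to 2072 in TG and from 588 to 833 in WT kidneys, while Cd68 and Adgre1 were below the floor on every array. Muscle markers, 6 of 6, were below the floor on every array, and the 6 endothelial markers had a median of -0.02. The part of these shifts in the differences of the members was not tested.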

How the data were processed

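The authors deposited 1 log2 expression value per probe set and array, made with GCRMA per the submitters' processing notes (its version is not given in the sources used here). Array run records, which hold no expression, gave chip lot, fluidics station and processing day. Of 12488 probe sets, 66 controls were left out, and 10833 named 1 gene, 396 several and 1193 none. Probe sets above log2 of 4 on at least 5 of 10 arrays were tested (53.0% to 57.0% of probe sets lay above it per array). The number of arrays limits the precision, and pairwise correlations of arrays were 0.980 to 0.998. Where several probe sets named a gene, the one with the highest mean over all arrays stood for it. TG was tested against WT with limma 3.58.1 in R 4.3.3 over all tested probe sets, with Benjamini-Hochberg adjustment at 0.05, without and with sex in the model. The procedure was tested on simulated data. Values per animal were printed for members past the threshold and for the 2 with the smallest p in each role. Others were added where they bear on sex or on 1 animal. The members and lists were chosen with earlier results of these data known. Alternatives covered filters, variance priors, normalization, technical blocks, sex, animal number range, probe set choice and left-out animals.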

Additional observations from a re-analysis of the deposited data

Results flagged for a closer look

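Of 70 groups of 5 animals, from 35 genes, 5 held a value that stood apart from the other 4 by Dixon's criterion (gap over range above 0.71). Chance marks about 1 in 20 groups. Ehhadh was 9.27 in TG 652, against 10.33 to 10.59 in the other TG kidneys. Hsd17b4 was 10.86 in TG 652, against 11.10 to 11.13 in the other TG kidneys, and within the WT range of 10.84 to 11.04. Fabp1 was 5.96 in TG 661, against 10.88 to 11.47 in the other TG kidneys. Acadl was 10.95 in WT 658, against 10.14 to 10.28 in the other WT kidneys. Acot8 was 7.16 in WT 612, against 7.75 to 7.97 in the other WT kidneys.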

How the results depend on the processing

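No paired analysis was possible because nothing in the labels ties a TG animal to a WT animal. The count of called members was 0 under all alternatives except sex in the model (1, Crat), sex and number range in the model (2, Crat and Cd36) and males alone (1, Cd36), and 0 without any 1 animal. The 83 called probe sets became 48 with no filter, 36 with median centring, 52 with the fluidics station and 32 with the processing day as a block, 285 with sex, 549 with sex and number range, 1 in females, 2 in animals 612 to 619, 4 in animals 650 to 663, 32 on the first day, 18 at a threshold of 0.01, and 31 to 92 without 1 animal. The count of further lipid genes called was 4 in the fit without sex. It became 1 with no filter, median centring, the processing day as a block, females alone, animals 612 to 619 alone or the first day alone. It became 2 with quantile normalization, chip lot or station as a block, males alone or the mean of probe sets. The count was 7 with sex, 12 with sex and number range, 0 in animals 650 to 663 or at 0.01, and 0 to 4 without 1 animal. The genes counted changed between settings. Without WT 650 they were Acsl4, Slc27a1, Acad9 and Vldlr. The 5 members that differed by sex became 2 at 0.01. The median of the mitochondrial members was 0.038 in animals 612 to 619, and -0.21 to -0.068 without 1 animal. That of the peroxisomal members was -0.036 in females, -0.11 with array weights, 0.12 in animals 612 to 619, and -0.26 to -0.031 without 1 animal. In animals 612 to 619 the sign turned for Acadl (0.11), Acadm (0.15), Etfdh (0.12), Ehhadh (0.12), Amacr (0.13), Lpl (0.14), Pdk4 (0.41) and Acot1 (0.25), and in animals 650 to 663 for Acot8 (-0.10) and Ppara (0.23). It turned in males for Acot8 (-0.014), Lpl (0.037), Pdk4 (0.052) and Acot1 (0.12), in females for Phyh (0.071), and with array weights for Ppara (0.000225). Without 1 animal, Acadl ran from -0.18 to 0.056, Acot8 from -0.066 to 0.14, Lpl from -0.38 to 0.039, Ppara from -0.28 to 0.043, Pdk4 from -0.84 to 0.042 and Acot1 from -0.37 to 0.21. None of these differences passed the test with all animals, and the cause of the changes was not tested. The 4 members within 0.05 of 0 were given by their range, a choice made after seeing the data. With 5 animals a group, 3 of them male, differences of the size of most members lie within the spread between animals. TG 661 was alone in its chip lot and day, and WT 663 alone in its day.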

Other observations

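The omega-hydroxylases of the Cyp4a family oxidise the far end of fatty acids and include PPAR-alpha targets. Cyp4a14 was picked after its values were seen, and the family shares sequence, so its probe set is not known to read 1 gene alone. Cyp4a14 had 9.44 to 11.52 in the 4 females and 3.40 to 6.45 in the 6 males, a difference of 5.96 ± 0.60 (limma adjusted p 0.000281). Within males it was 4.79, 5.13 and 6.45 in TG 619, 657 and 661, against 3.84, 3.50 and 3.40 in WT 618, 658 and 663, where the WT values lie below the filter's floor. Within females it was 9.44 and 10.11 in TG 614 and 652, against 10.86 and 11.52 in WT 612 and 650. The difference in the effect of genotype between females and males had an adjusted p of 0.519 in limma. Of the same family, Cyp4a12b went the other way by sex, with 1.03 to 5.81 in females and 5.13 to 9.29 in males. Its female minus male difference was -4.94 ± 0.98 (limma adjusted p 0.0146), with the lowest values below the floor. Cyp4a10 differed by 0.81 ± 0.26 between the sexes and was not called (limma adjusted p 0.0749).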
